A study of Mus musculus with 18 samples.

Results

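The comparison of F1 with WT granule cells rested on 4 RNA-Seq libraries, 2 from WT and 2 from F1 males, chosen by their labels out of 6 RNA-Seq libraries and 18 samples in the series. F1 males were genetically WT at the 5-HT1A receptor gene, but their mothers and grandmothers carried the genotype 5HT1A-/+, that is, 1 disrupted copy of the receptor. The fathers of F1 males were heterozygous as well, since the study bred F1 from heterozygous pairs. WT males had WT mothers and grandmothers and came from a separate WT lineage bred alongside. All animals were Swiss Webster males, an outbred strain, aged 8 to 12 weeks and drawn from at least 3 litters, and the RNA was polyadenylated RNA of the microdissected ventral dentate gyrus. How many animals entered a library was not given in the sources used here, so p-values measure the spread between libraries. Maternal genotype, paternal genotype, lineage and litter cannot be told apart in this design.

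Granule cells are the glutamatergic principal neurons of the dentate gyrus, which receive cortical input and pass it to CA3 through the mossy fibres. Those of the ventral part have been linked to anxiety-related behaviour. The 5-HT1A receptor, encoded by Htr1a, is an inhibitory serotonin receptor present on many hippocampal neurons. The question was which genes and gene families differed in the adult granule cell layer of F1 males. These males lacked a receptor mutation of their own but had heterozygous parents and had been exposed to a receptor-deficient mother.

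The files assigned 28144216 to 33727936 reads to genes in each library, and levels are given as CPM, read counts scaled to a common library size by the trimmed mean of M-values (TMM). Htr1a was at 62.2 and 55.8 CPM in WT and at 49.4 and 55.2 CPM in F1, a log2 fold change of -0.17 ± 0.13 (standard error, 2 libraries a group), and was not called (exact test, adjusted p = 0.40). The labelled tissue held its markers: all 14 granule cell identity genes were detected, with a summed level of 1933 and 2009 CPM in WT and 1662 and 2067 CPM in F1. Prox1, the transcription factor that keeps granule cell identity, was at 254 and 293 CPM in WT and 228 and 283 CPM in F1. Of the 14 genes only Plk5, a polo-like kinase of neurons, was called, at 115 and 91.3 CPM in WT and 67.6 and 67.8 CPM in F1. It was called in 1 of the 4 fits that left out 1 library, and without F1 replicate 1 the list held 3 higher genes and none lower. None of 16 genes of immature granule cells and progenitors was called by edgeR's exact test or its quasi-likelihood test. In bulk libraries fewer cells of a type and less RNA per cell cannot be told apart, which holds for every cell type below.

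More genes were lower than higher in F1. Of 17287 genes tested, 502 were higher (2.90%) and 1309 were lower (7.57%) at an adjusted p under 0.01 by edgeR's exact test, so 10.5% were called in either direction. The median log2 fold change was 0.63 among the genes called higher and -1.01 among those called lower, against 0.01 over all tested genes. A fold of at least 2 was reached by 118 of the genes called higher and by 660 of those called lower. No called gene had overlapping WT and F1 values. The quasi-likelihood test, which allows for uncertainty in each gene's dispersion, called 186 higher (1.08%) and 792 lower (4.58%), all of them among the calls of the exact test. Leaving out 1 library changed the total from 1811 to 622 without WT replicate 1, 1031 without WT replicate 2, 1720 without F1 replicate 1 and 899 without F1 replicate 2. In all 4 of these fits 69 genes stayed higher and 382 stayed lower. Counts of lists with 1 library left out are to be read beside these totals, since the calls over all genes changed in each such fit as well. The plot of all tested genes shows both sets across the range of levels.

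**Figure D1:**
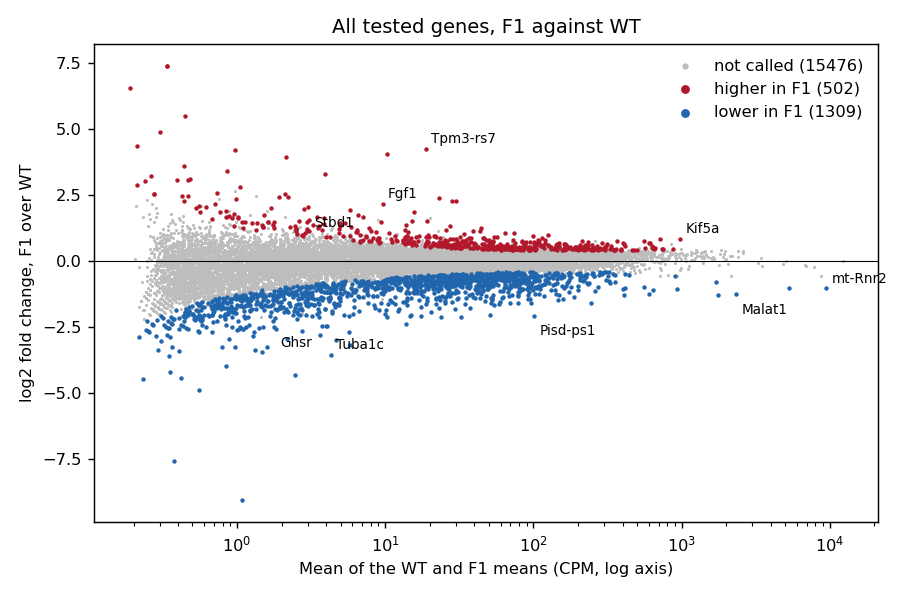
Log2 fold change of F1 over WT (y axis) against mean level in CPM (x axis, log scale), with 1 point per tested gene. The 1309 genes called lower in F1 (blue) reach from rare transcripts to the mitochondrial rRNA mt-Rnr2, while the 502 called higher (red) include Kif5a at the upper end. Fold changes of genes with very few counts depend on the fit.

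Replicates of a group differed by a median SD of 0.10 on the log2 CPM scale in WT and 0.11 in F1, and the common coefficient of variation was 11.4%. Library composition differed between the groups as well. Reads that aligned uniquely but did not lie wholly within annotated exons made up 17.7% and 20.7% of unique reads in WT and 13.8% and 12.2% in F1. For every 100 reads counted, 50.5 and 58.8 aligned to several places in WT, against 47.2 and 38.8 in F1. A gene had at least 1 read for 23454 and 23892 symbols in WT and for 22736 and 22403 in F1. The groups did not overlap in any of these 3 measures, and their part in the results below was not tested.

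Among RNAs that usually stay in the nucleus, a set of long noncoding RNAs gave the highest share of lower calls among the lists of 10 or more tested genes: 8 of 11 tested were lower in F1 and none was higher, with a median log2 fold change of -1.24. Malat1, a nuclear speckle RNA at chr19:5795690-5802671 (mm9), was at 3085 and 3502 CPM in WT and at 1487 and 1248 CPM in F1. Both F1 libraries were below both WT libraries, and the log2 fold change was -1.27 ± 0.14 (exact test, adjusted p = 3.5e-17). Meg3, the maternally expressed imprinted RNA at chr12:110779211-110809936 (mm9), was at 2666 and 2342 CPM in WT and at 1242 and 826 CPM in F1. Mirg, a microRNA host transcript of the same imprinted cluster, was at 39.9 and 26.4 CPM in WT and 13.5 and 7.75 CPM in F1. Both imprinted neighbours fell, with log2 fold changes of -1.28 for Meg3 and -1.64 for Mirg. Miat, a long noncoding RNA of neurons, fell from 815 and 675 CPM to 352 and 398 CPM.

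Among the other nuclear RNAs, Pisd-ps1 showed the largest fall, from 174 and 154 CPM to 43.0 and 35.5 CPM, a log2 fold change of -2.06 ± 0.14. It is a pseudogene of a phosphatidylserine decarboxylase, and reads shared with its copies were left out of the counts, so its level is uncertain. A330023F24Rik, a transcript that hosts microRNAs, was at 90.6 and 65.2 CPM in WT and 28.7 and 22.8 CPM in F1. Neat1, the scaffold of paraspeckles, had the smallest fall of the 8, from 124 and 133 CPM to 67.3 and 64.4 CPM. Without any 1 library, 8 or 9 members of the list were still lower, and the quasi-likelihood test called 8. Host genes of small nucleolar RNAs, which are spliced from introns of these transcripts, were lower in 4 of 8 tested, with a median of -0.64. Snhg11, which is on both lists, was at 947 and 750 CPM in WT and at 444 and 277 CPM in F1. Gas5, another snoRNA host, was at 186 and 189 CPM in WT and at 136 and 116 CPM in F1, and without WT replicate 2 the count of the list was 2.

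Both mitochondrial ribosomal RNAs were lower, and how fully libraries of polyadenylated RNA capture them was not tested. Together they gave 15502 and 24138 CPM in WT and 10886 and 8622 CPM in F1. For mt-Rnr2, the large rRNA, the levels were 9743 and 15686 CPM against 6901 and 5532 CPM, and the log2 fold change was -1.03 ± 0.20. mt-Rnr1, the small rRNA, fell by 1.01 on the log2 scale. The WT libraries differed from each other by more than WT replicate 1 did from F1 replicate 1. The mRNAs that the mitochondrial genome encodes, a set added after the data were seen of which 12 of 13 were tested, gave 46797 and 60928 CPM in WT and 51919 and 47519 CPM in F1, and none of them was called by the exact or the quasi-likelihood test.

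**Figure D2:**
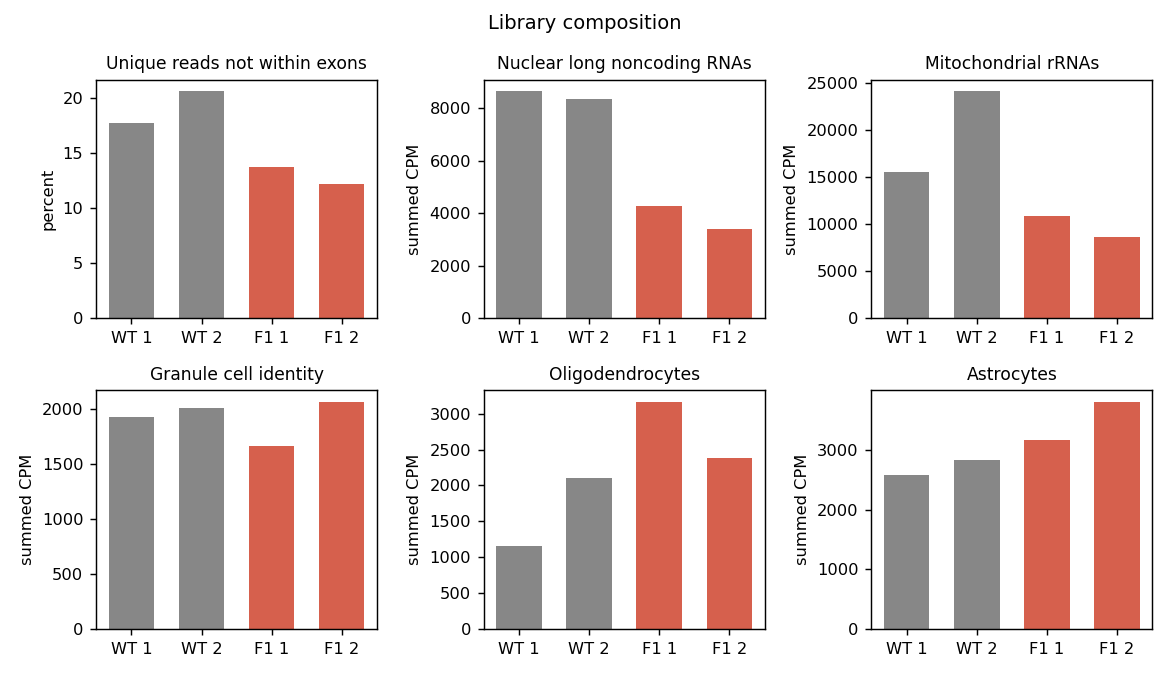
Composition of the 4 libraries (x axis) for 6 measures: unique reads not wholly within exons in percent, and the summed CPM of nuclear long noncoding RNAs, mitochondrial rRNAs, granule cell identity genes, oligodendrocyte genes and astrocyte genes, with WT in grey and F1 in red. Nuclear RNAs sum to 8652 and 8336 CPM in WT and to 4286 and 3415 CPM in F1, while the granule cell identity sums overlap.

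The direction of the calls also followed gene type and gene structure, as the bars by gene class show. Processed transcripts, a class of noncoding RNA, were lower in 107 of 564 tested (18.97%) and higher in 5. Long intergenic noncoding RNAs were lower in 96 of 749 (12.8%) and higher in 12. Annotated small nucleolar RNAs were lower in 13 of 58 tested and none was higher. The libraries were of polyadenylated RNA, and whether these reads came from the mature small RNAs or from host transcripts was not tested. Protein-coding genes were lower in 1021 of 15098 (6.76%) and higher in 472 (3.13%). Among protein-coding genes, those with an annotated transcript that retains an intron were lower in 455 of 4796 (9.49%), against 566 of 10302 (5.49%) of those without. Within each quintile of mean count, the share of lower calls was larger in the genes with such a transcript, by 6.74% against 5.39% in the lowest quintile and 8.11% against 4.84% in the highest.

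Lower calls were more frequent in genes with many exons, from 3.92% of coding genes with 1 to 4 separate exon blocks to 12.5% of those with 19 or more. They were also more frequent in GC-rich genes, from 4.53% in the lowest quintile of GC content to 10.7% in the highest. The share of higher calls varied less, between 2.30% and 3.55% over exon number and between 2.38% and 4.47% over GC content. A likelihood-ratio test on counts corrected for GC content and exon length called 727 genes higher and 1606 lower, a change of test as well as of counts. With replicate number as a block, that test called 702 higher and 1613 lower with the correction. Without the correction it called 487 and 1619. These shares describe genes, which are not independent replicates.

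**Figure D3:**
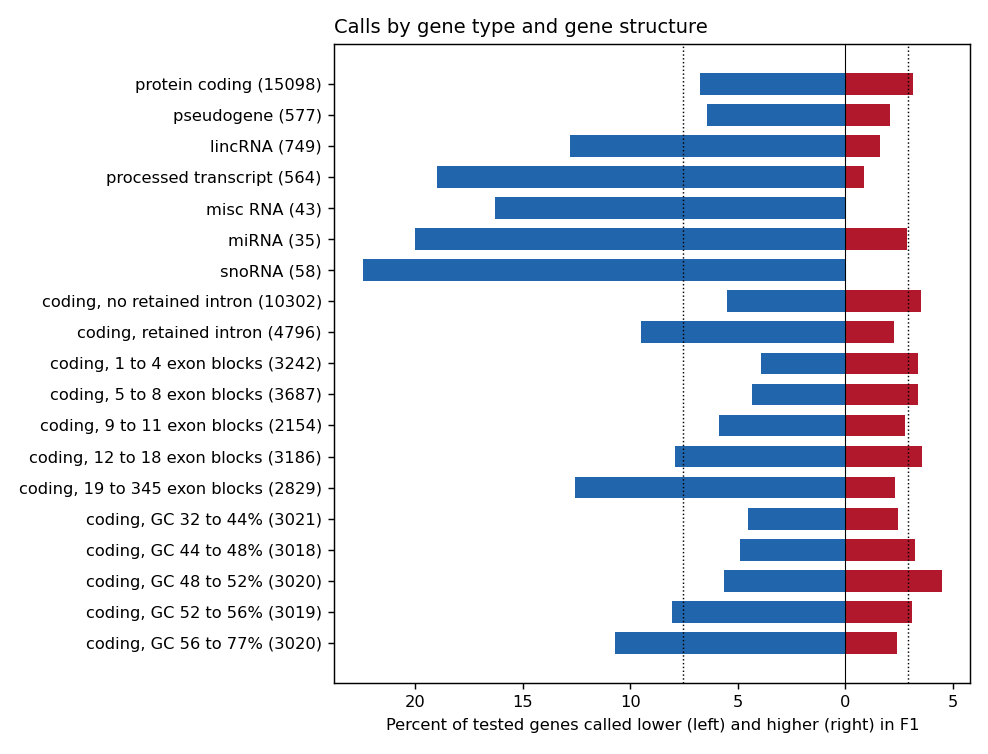
Percent of tested genes called lower (blue, left) and higher (red, right) in F1 by gene type, retained-intron annotation, number of exon blocks and GC content, with the number of genes in brackets and the shares over all genes, 7.57% and 2.90%, as dotted lines. Bars past the dotted line on the left include the noncoding RNA classes and coding genes with 19 or more exon blocks. Pseudogenes, at 6.41%, stay short of that line.

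Regulators of splicing whose own transcripts carry conserved regulated introns were lower in 12 of 24 tested, and none was higher, with a median log2 fold change of -0.44. The CLK kinases phosphorylate SR proteins and thereby set splice site choice. Clk1 was at 258 and 168 CPM in WT and at 95.7 and 77.1 CPM in F1, a log2 fold change of -1.30 ± 0.19 (exact test, adjusted p = 7.7e-10). Clk4 was at 124 and 96.8 CPM in WT and at 52.8 and 44.2 CPM in F1. Ccnl2, a cyclin of the splicing speckles, fell from 281 and 202 CPM to 111 and 102 CPM. Srsf2, an SR protein that regulates its own messenger, fell from 64.7 and 52.0 CPM to 24.9 and 27.3 CPM. In all 4 genes the WT library with the lower value was still above both F1 libraries. Rbm39 had the smallest fall among the 12, with -0.46 ± 0.12. The quasi-likelihood test called 11 of the 24, and between 9 and 12 were lower with any 1 library left out.

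Other parts of the splicing machinery moved less. SR proteins and hnRNPs, which partly repeat the list above, were lower in 8 of 31 tested (median -0.10) and none was higher, and without WT replicate 1 or F1 replicate 2 the count was 3 or 4. Srsf5 was at 307 and 298 CPM in WT and at 181 and 151 CPM in F1, and Hnrnpl, the smallest fall of the 8, was at 337 and 346 CPM against 266 and 240 CPM. Core spliceosome genes were lower in 6 of 53 and higher in 1, with 2 lower without WT replicate 1 and 3 lower without either F1 library. Prpf39, a U1 snRNP factor, fell from 101 and 87.3 CPM to 51.3 and 43.1 CPM, whereas Lsm11, part of the U7 particle that processes histone messengers, rose from 29.1 and 22.5 CPM to 47.02 and 48.04 CPM. The U1 component Snrnp70 was at 311 and 230 CPM in WT and 164 and 154 CPM in F1.

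Enzymes that modify histones were lower in 14 of 75 tested (18.7%) and higher in 1, although the median of the list was -0.09. Suv420h2, a methyltransferase of histone H4, fell from 41.5 and 32.8 CPM to 16.3 and 12.7 CPM (-1.36 ± 0.18). Hdac7, a class IIa deacetylase, fell from 63.73 and 59.96 CPM to 28.85 and 23.26 CPM. Dot1l, the methyltransferase of histone H3, fell from 137 and 108 CPM to 59.8 and 56.3 CPM. Sirt4, a sirtuin that acts in mitochondria but was counted in this list, fell by 1.21 on the log2 scale. The single rise was Hdac11, a class IV deacetylase, from 125 and 105 CPM to 163 and 162 CPM. The count of lower members was 5 without WT replicate 1 and 9 without F1 replicate 2.

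Genes of DNA methylation and of chromatin remodelling stayed nearer to the background. Of 20 methylation enzymes and readers 2 were lower, Mbd6, a methyl-CpG-binding domain protein, by 1.35 and Dnmt3a, the de novo methyltransferase, by 0.43 on the log2 scale. Dnmt3a was at 93.8 and 86.6 CPM in WT and at 68.6 and 65.3 CPM in F1, and its adjusted p was 0.0073 by the exact test and 0.022 by the quasi-likelihood test. Chromatin remodellers were lower in 2 of 38. Zinc finger genes named Zfp, most of them repressors, were lower in 22 of 352 (6.25%), beside 7.57% of all genes, and in 8 to 16 with 1 library left out, lowest without F1 replicate 2.

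**Figure D4:**
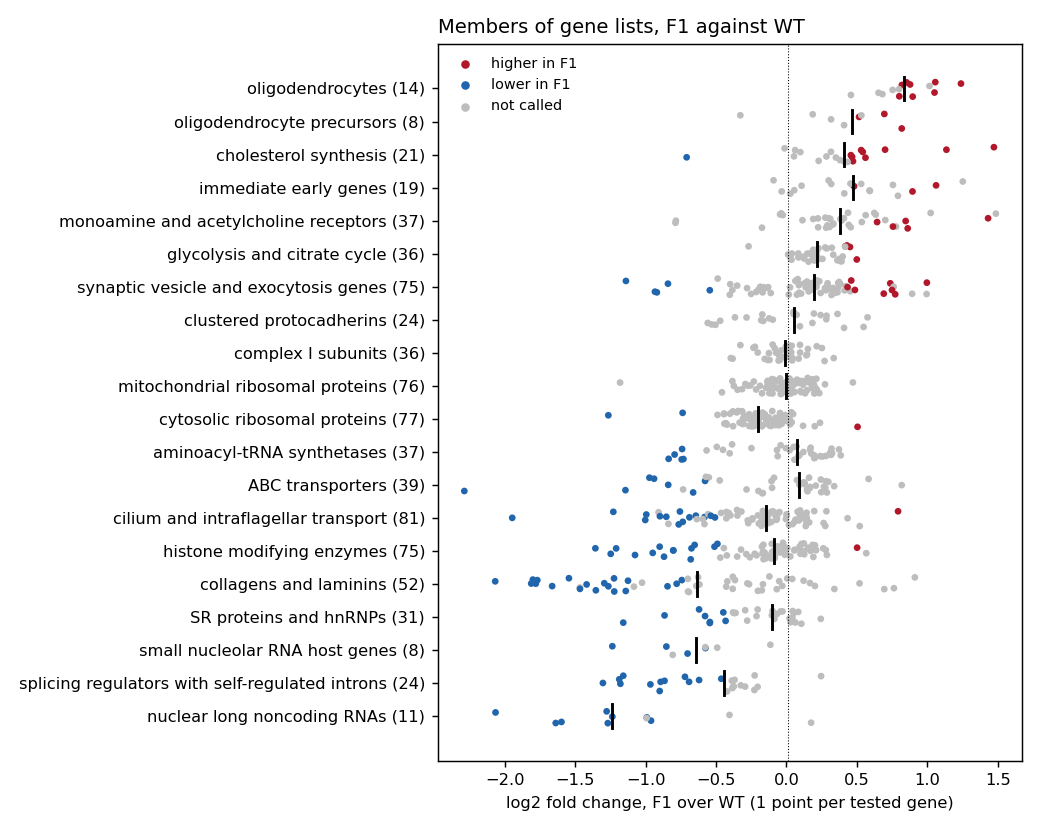
Log2 fold change of F1 over WT (x axis) for the tested members of 20 gene lists (y axis, number tested in brackets), coloured by call, with the list median as a black bar and the median of all genes as a dotted line. Nuclear RNAs, splicing regulators and collagens lie to the left and oligodendrocyte and cholesterol genes to the right, while complex I and mitochondrial ribosomal proteins centre on the dotted line.

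Collagens and laminins, the fibrils and basement membranes around vessels and cells, were lower as a family. Of 52 tested, 19 were lower (36.5%) and none was higher, and the median log2 fold change was -0.63. Col5a2, a fibrillar collagen, was at 18.1 and 20.5 CPM in WT and at 7.73 and 3.28 CPM in F1, a log2 fold change of -1.81 ± 0.30 (exact test, adjusted p = 3.5e-07). Col5a3, of the same type V collagen, was at 6.85 and 5.25 CPM in WT and at 2.18 and 1.30 CPM in F1. Col6a3, part of a microfibril, fell from 3.97 and 4.37 CPM to 1.06 and 1.36 CPM. These 3 genes were called in every fit that left out 1 library. Col2a1, best known from cartilage, was at 1.68 and 3.73 CPM in WT and at 0.76 and 0.52 CPM in F1. Lama5, a laminin chain of basement membranes, had the smallest fall of the 19, from 16.6 and 16.7 CPM to 9.85 and 10.02 CPM.

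The quasi-likelihood test called 16 of these 19 genes, and with 1 library left out the count was between 14 and 21. By a likelihood-ratio test on counts corrected for GC content and exon length, 20 members were lower and 1 was higher. Bmp1, the protease that processes fibrillar procollagens, also fell, from 235 and 193 CPM to 85.3 and 68.8 CPM (-1.47 ± 0.15). Which cells the collagen transcripts came from was not tested. Markers of endothelial cells and pericytes had a summed level of 196 and 220 CPM in WT and 235 and 275 CPM in F1, with 1 of 14 higher. That gene was Ly6c1, at 11.6 and 9.62 CPM in WT and at 16.3 and 18.1 CPM in F1.

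By the exact test on all 4 libraries, smaller groups were lower more often than all genes. Genes of the cilium and of intraflagellar transport were lower in 14 of 81 and higher in 1, with Cep110, a centrosomal protein, falling from 23.7 and 22.4 CPM to 9.55 and 10.1 CPM. Their lower count was 8 by the quasi-likelihood test and between 4 and 8 with 1 library left out, lowest without WT replicate 1. ABC transporters were lower in 7 of 39, among them Abcc5, an exporter of cyclic nucleotides, from 305 and 218 CPM to 136 and 137 CPM. Without WT replicate 1 that count was 4. Chloride, HCN and TRP channels were lower in 6 of 37 and in 5 by the quasi-likelihood test. Fewer were lower without WT replicate 1 or F1 replicate 2, where fewer of all genes were called lower too. Without WT replicate 1 the share of these channels called lower was about that of all genes. Clcn2, a chloride channel open at rest, was at 133 and 104 CPM in WT and at 76.6 and 61.7 CPM in F1. Aminoacyl-tRNA synthetases were lower in 5 of 37, of which Hars2, Aars2 and Sars2 serve mitochondria, and 2 were lower without WT replicate 1. Vars, the cytosolic valine enzyme, fell from 105 and 93.7 CPM to 58.6 and 52.9 CPM.

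Calcium release channels and axon guidance genes gave single large falls. Ryr1 and Ryr3, ryanodine receptors that release calcium from internal stores, fell by 1.39 and 1.05 on the log2 scale. For Ryr3 the levels were 124 and 106 CPM in WT and 61.1 and 49.6 CPM in F1. Celsr3, an atypical cadherin needed for axon tracts, fell from 295 and 248 CPM to 119 and 94.7 CPM (-1.35 ± 0.15). Robo3, a receptor for midline guidance, fell from 59.8 and 53.6 CPM to 22.6 and 21.3 CPM. Semaphorins, plexins, ephrins and their receptors as a whole were lower in 6 of 69 (8.70%, near the 7.57% of all genes) and higher in 5 (7.25%), with 4 lower in each fit that left out 1 library and between 0 and 3 higher. Among the rises, Sema3b was at 2.29 and 1.90 CPM in WT and at 4.56 and 5.38 CPM in F1.

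Oligodendrocyte genes were the list with the largest share higher in F1. All 14 had a positive log2 fold change, 8 were called higher, and the median was 0.84. Cldn11, the tight junction protein of myelin, was at 19.8 and 33.2 CPM in WT and at 71.3 and 53.4 CPM in F1, a log2 fold change of 1.24 ± 0.22 (exact test, adjusted p = 9.4e-07). Mal, a myelin proteolipid, rose from 35.4 and 60.7 CPM to 119 and 80.5 CPM. Fa2h, which makes the hydroxylated fatty acids of myelin lipids, rose from 5.29 and 8.63 CPM to 14.8 and 13.9 CPM. Mbp was at 457 and 862 CPM in WT and 1197 and 877 CPM in F1 and was not called.

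The WT libraries differed from each other in these genes by about as much as the group means did. The summed level of the 14 genes was 1161 and 2103 CPM in WT and 3165 and 2383 CPM in F1. Without WT replicate 1, whose sum was the lowest, 1 gene was called higher, whereas 13 were without WT replicate 2, 4 without F1 replicate 1 and 8 without F1 replicate 2. The quasi-likelihood test called 5. Of 8 genes of oligodendrocyte precursors 3 were higher, among them Gpr17, a receptor of newly formed oligodendrocytes, from 19.97 and 19.87 CPM to 34.2 and 36.1 CPM. The precursor count was 1 by the quasi-likelihood test, 1 without WT replicate 1, 2 without F1 replicate 1 and 1 without F1 replicate 2.

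Other cell types moved less but mostly in the same direction, with medians of 0.35 for astrocytes, 0.35 for microglia and 0.44 for endothelial cells and pericytes. Positive log2 fold changes were found in 11 of 12 astrocyte, 14 of 14 microglia and 13 of 14 endothelial and pericyte genes. The same held for 7 of 8 precursor and 11 of 12 interneuron genes. Neuronal lists varied, with 8 of 9 mature excitatory neuron genes and 12 of 16 genes of immature granule cells and progenitors positive. The count was 5 of 14 for granule cell identity genes and 5 of 10 for ventral and dorsal granule cell genes. Over all genes the median was 0.01, and 2.90% were called higher. The 12 astrocyte genes summed to 2583 and 2825 CPM in WT and to 3163 and 3808 CPM in F1, and 1 was called, Ednrb, an endothelin receptor, from 21.7 and 27.1 CPM to 37.5 and 41.3 CPM. The 14 microglia genes summed to 208 and 205 CPM in WT and to 249.2 and 289 CPM in F1. Fcrls was at 1.41 and 1.27 CPM in WT and at 3.63 and 4.12 CPM in F1, and 2 of the list were called higher. Interneuron sums overlapped, at 949 and 1000 CPM in WT and 1245 and 948 CPM in F1, with Slc32a1, the vesicular GABA transporter, higher by 0.65 on the log2 scale. Genes of mossy cells and CA fields were higher in 3 of 14 and lower in 1, in none without WT replicate 2, and in 2 and none by the quasi-likelihood test. Dkk3 rose from 201 and 171 CPM to 270 and 297 CPM, Bok and Cpne4 rose by 0.58 and 0.56 on the log2 scale, and Nmb, a neuropeptide, fell by 0.80. With 1 library left out, no astrocyte gene was higher without WT replicate 1 or F1 replicate 2, and 5 endothelial genes were higher without F1 replicate 1. None of 6 tested choroid plexus genes was called by the exact or the quasi-likelihood test.

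Cholesterol synthesis genes were higher in 9 of 21 tested (42.9%) and lower in 1, with a median log2 fold change of 0.41. The pathway runs from acetyl-CoA through isoprenoids and squalene to sterols, and in cells short of sterol the SREBP2 factor raises its enzymes together. Idi1, which isomerises the isoprenoid unit, was at 1.76 and 1.37 CPM in WT and at 3.11 and 5.64 CPM in F1, a log2 fold change of 1.47 ± 0.34 (exact test, adjusted p = 4.0e-04). Sc5d, a sterol desaturase, rose from 21.3 and 22.1 CPM to 28.0 and 36.1 CPM, and Cyp51, a sterol demethylase with the smallest rise of the 9, from 39.6 and 42.0 CPM to 55.6 and 56.4 CPM. Tm7sf2, a sterol reductase, fell from 25.7 and 22.0 CPM to 14.3 and 14.9 CPM.

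In the 9 genes that rose, the lower F1 library was above both WT libraries. The quasi-likelihood test called 3 of the 9, and with 1 library left out the count was 7 without F1 replicate 1, 2 without WT replicate 2 and 1 without either of the others. Oligodendrocytes also make cholesterol for myelin, and the oligodendrocyte sums given above moved in the same direction, with their part not tested. Hmgcs1 had no count in any library and was not tested.

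Promoters of this pathway commonly hold CCAAT boxes, which bind the NF-Y factor, close to the start site. Of the 22 listed genes in the files, 16 had a promoter sequence in RefSeq (GRCm38.p6), and all 16 held CCAAT on either strand within the 250 bases before an annotated start, against 37.5% of 27025 genes. The SREBP motif TCACNCCAC, on either strand, was in 1 of the 16, Hmgcs1, and in 1.22% of all genes. The motifs, chosen after the values were seen, can overlap by no more than an end base, and a match describes these letters and not a bound site. The 3 genes shown are called genes with a sequence in the table, at chr13:8885356-8885605 on the plus strand for Idi1, chr5:4104698-4104947 on the minus strand for Cyp51 and chr9:42264301-42264550 on the minus strand for Sc5d. They are written 5′ to 3′ up to the base before the start, with capitals for CCAAT or its reverse complement.
Idi1: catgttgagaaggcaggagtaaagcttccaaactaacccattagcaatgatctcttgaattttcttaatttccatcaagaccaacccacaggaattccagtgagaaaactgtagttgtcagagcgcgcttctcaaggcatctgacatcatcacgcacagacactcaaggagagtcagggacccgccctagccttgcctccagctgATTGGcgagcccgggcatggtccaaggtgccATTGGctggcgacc
Cyp51: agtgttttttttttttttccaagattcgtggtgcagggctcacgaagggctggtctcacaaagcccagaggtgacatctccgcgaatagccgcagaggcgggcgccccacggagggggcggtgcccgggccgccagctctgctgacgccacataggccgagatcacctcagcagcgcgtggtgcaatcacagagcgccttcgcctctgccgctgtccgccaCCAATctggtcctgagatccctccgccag
Sc5d: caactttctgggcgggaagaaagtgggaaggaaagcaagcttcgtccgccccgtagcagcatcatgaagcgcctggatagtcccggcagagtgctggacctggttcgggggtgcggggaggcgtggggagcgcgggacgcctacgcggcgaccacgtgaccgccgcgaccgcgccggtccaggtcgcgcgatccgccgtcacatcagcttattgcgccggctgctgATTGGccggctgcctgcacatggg

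In Idi1 the boxes began 45 and 14 bases before the start, in Cyp51 the box began 29 bases before it and in Sc5d 24 bases before it, each counted from the first base of the capitals. The promoter of Tm7sf2, the member that fell, held 1 box, 47 bases before its start. A box was thus present in members of either direction.

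Genes of vesicle release were called in both directions. Of 75 tested, 8 were higher (10.7%, against 2.90% of all genes) and 5 were lower (6.67%, about the 7.57% of all genes), and the median was 0.19. Syn2, a synapsin that ties vesicles to the cytoskeleton, was at 775 and 710 CPM in WT and at 990.5 and 1015 CPM in F1. Vamp2, the vesicle SNARE of fast release, was at 681 and 552 CPM in WT and at 820 and 876 CPM in F1. Both differences were below 0.5 on the log2 scale, and neither was called by edgeR's quasi-likelihood test (adjusted p = 0.034 and 0.038). Unc13c, a priming factor, rose from 3.85 and 5.14 CPM to 8.16 and 9.73 CPM. Its relative Unc13b fell from 68.8 and 59.7 CPM to 38.1 and 29.9 CPM, and Stxbp2 and Stx2, which also serve exocytosis outside the synapse, had log2 fold changes of -1.14 and -0.93. The quasi-likelihood test called 4 of the list higher and 3 lower, 4 were higher without either WT library and 5 without F1 replicate 2, and 3 were lower without WT replicate 1 or F1 replicate 2.

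**Figure D5:**
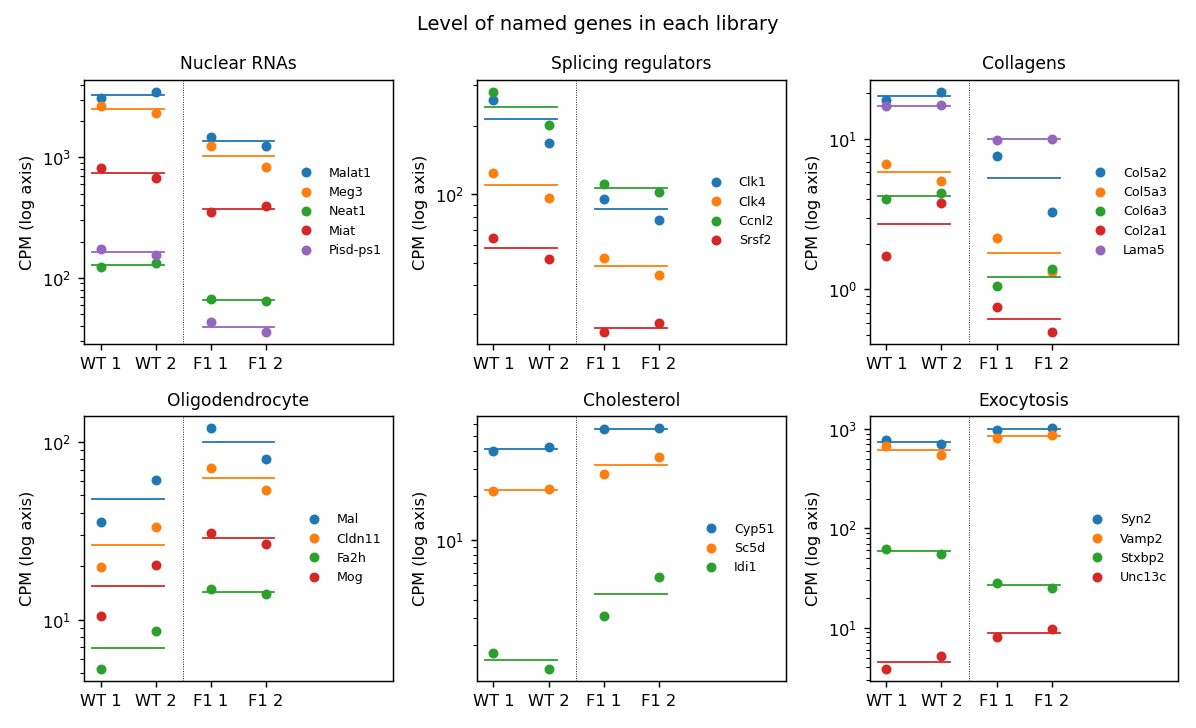
CPM (y axis, log scale) of named genes in the WT and F1 libraries (x axis) for 6 groups, with points for libraries and lines for the mean of 2 libraries. The F1 points of nuclear RNAs, splicing regulators and collagens lie below all WT points of the same gene, those of oligodendrocyte and cholesterol genes above them, and in the exocytosis panel Stxbp2 is lower while Syn2, Vamp2 and Unc13c are higher.

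Single neuronal genes rose at high levels. Kif5a, a kinesin heavy chain of neurons at chr10:126662755-126700136 (mm9), was at 638 and 762 CPM in WT and at 1317 and 1177 CPM in F1, a log2 fold change of 0.83 ± 0.14 (exact test, adjusted p = 7.4e-08), and was called in all 4 fits that left out 1 library. Its relative Kif5c rose by 0.49 on the log2 scale. Kinesins, dyneins and myosins as a list were higher in 5 (6.10%) and lower in 6 (7.32%) of 82, with a median of 0.02. Over all genes 2.90% were higher and 7.57% lower. Rab6b, a Golgi GTPase of neurons, was at 559 and 528 CPM in WT and at 740 and 772 CPM in F1. Camk4, a calcium-activated kinase that acts on CREB, rose from 78.1 and 82.4 CPM to 131 and 136 CPM. Dlg2, a scaffold of the postsynaptic density, rose from 71.4 and 81.6 CPM to 107 and 146 CPM. Gabra5, the alpha5 subunit of extrasynaptic GABA-A receptors, rose from 158 and 172 CPM to 241 and 231 CPM. Trank1, Rnf112 and Cpne6 were among the highest levels that fell, with Rnf112, a neuronal RING finger protein, at 1378 and 1151 CPM in WT and at 610 and 592 CPM in F1.

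Receptors for monoamines and acetylcholine were higher in 5 of 37 tested (13.5%) and none was lower, with a median of 0.38. Chrna7, the alpha7 nicotinic subunit, was at 6.59 and 6.20 CPM in WT and at 8.95 and 14.3 CPM in F1. Chrm3, a muscarinic receptor coupled to phospholipase C, rose from 7.88 and 7.68 CPM to 11.2 and 16.7 CPM. Htr7, a serotonin receptor that raises cyclic AMP, rose from 5.38 and 6.59 CPM to 10.6 and 9.60 CPM, and Adra1d, an adrenergic receptor, from 36.6 and 25.5 CPM to 46.9 and 50.3 CPM. None of the 5 passed by the quasi-likelihood test, where the share of all genes called higher was 1.08%, and 1 passed without WT replicate 1, 2 without F1 replicate 2 and none without WT replicate 2.

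Immediate early genes, which neurons transcribe within minutes of activity, were higher in 3 of 19 tested (15.8%, against 2.90% of all genes). None was lower, against 7.57% of all genes. Arc, a synaptic plasticity protein, was at 50.2 and 33.5 CPM in WT and at 115 and 59.98 CPM in F1 (1.06 ± 0.26). Egr3, a zinc finger factor, rose from 9.56 and 9.51 CPM to 13.8 and 21.6 CPM, and Nr4a3 by 0.48 on the log2 scale. On the CPM scale the F1 libraries differed from each other in Arc by more than the group means did, and the count was 12 without F1 replicate 2 and at most 1 without any other library. Of 14 glucocorticoid receptors and target genes, Klf9 rose from 87.3 and 76.9 CPM to 105 and 154 CPM and Sgk1, a kinase of ion transport, by 0.49 on the log2 scale. Neither list held a call by the quasi-likelihood test.

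Among metabolic enzymes, glycolysis and citrate cycle genes had positive log2 fold changes in 35 of 36 tested. The median was 0.22 and 4 were called higher, none of them by the quasi-likelihood test and at most 1 with any library left out. The 4 were 11.1% of the list, against 2.90% of all genes called higher. Tpi1, a triosephosphate isomerase, had the largest rise of the 4, from 503 and 429 CPM to 673 and 644 CPM. Hk1, the main brain hexokinase, had the smallest, with 0.42 ± 0.12. Among single genes with a metabolic role, Stbd1, a glycogen-binding protein, was at 1.24 and 1.13 CPM in WT and at 4.43 and 5.32 CPM in F1, and Ppp1r3c, which targets a phosphatase to glycogen, rose from 17.8 and 17.1 CPM to 26.1 and 31.3 CPM.

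Families of the basic cell machinery held few calls. No gene was called by the exact or the quasi-likelihood test among 76 mitochondrial ribosomal proteins, 36 complex I subunits, 16 ATP synthase subunits, 16 peroxisome biogenesis genes or 24 clustered protocadherins. Their medians lay between -0.01 and 0.06, and with 1 library left out no list had more than 1 call. Cytosolic ribosomal proteins were higher in 1 and lower in 2 of 77, but 67 of the 77 had a negative log2 fold change and the median was -0.20. Without F1 replicate 1, 7 were lower, and 1 was lower without WT replicate 2 or F1 replicate 2. Rpl26 was at 143 and 145 CPM in WT and at 84.3 and 35.5 CPM in F1, and Rpl3 rose by 0.50 on the log2 scale. Ribosomal protein genes have many near-identical pseudogenes that take reads away from them.

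The largest changes among well-counted genes, those with a mean of at least 50 normalised counts, were partly in genes with such copies. Tpm3-rs7, a tropomyosin copy at chr14:113713830-113715935 (mm9), was at 1.88 and 1.90 CPM in WT and at 41.3 and 30.3 CPM in F1 (4.24 ± 0.23). The pseudogene copies Rpsa-ps10 and Gm15772 rose by 2.28 and 2.25 on the log2 scale. Reads of these genes can come from their parent genes, so the values are uncertain. Fgf1, an acidic fibroblast growth factor without such a copy in the list, was at 3.15 and 3.88 CPM in WT and at 10.4 and 20.95 CPM in F1, a log2 fold change of 2.16 ± 0.31. Hs3st2, a heparan sulfate sulfotransferase, rose from 1.03 and 1.27 CPM to 6.38 and 2.66 CPM, and Tagap, a GTPase activator of lymphocytes, from 0.44 and 0.78 CPM to 2.68 and 3.80 CPM.

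The falls of the same size were in genes of low level. 1700001K19Rik was at 4.94 and 4.37 CPM in WT and at 0.264 and 0.195 CPM in F1, the largest fall among well-counted genes with -4.32 ± 0.46. Tuba1c, an alpha-tubulin with close relatives, was at 3.88 and 11.9 CPM in WT and at 0.53 and 0.81 CPM in F1, so that the WT libraries also differed widely from each other. Ghsr, the ghrelin receptor, was at 3.32 and 2.75 CPM in WT and at 0.264 and 0.811 CPM in F1, a log2 fold change of -2.49 ± 0.41 (exact test, adjusted p = 6.6e-08). Cpsf4l, a polyadenylation factor relative, and Tbx6, a T-box factor of the early embryo, fell by 2.57 and 2.25 on the log2 scale. All of these were called in each fit that left out 1 library.

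Genes of cytokines, chemokines and their receptors were mostly near the limit of counting. Of 170 listed genes 88 were tested, 8 were lower (9.09%) and 1 was higher (1.14%), near or below the 7.57% and 2.90% of all genes, with 5 lower without WT replicate 1 and 7 higher without F1 replicate 1. Il3ra and Csf2rb2, chains of the interleukin 3 receptor, fell from 7.79 and 9.19 CPM to 2.45 and 1.69 CPM and from 14.4 and 17.1 CPM to 5.45 and 3.24 CPM. Tnfrsf25, a death receptor, was at 108 and 55.2 CPM in WT and at 23.8 and 16.2 CPM in F1. The rise was Cxcl12, a chemokine of the granule cell layer, at 60.9 and 70.3 CPM in WT and 95.2 and 91.6 CPM in F1. Interferon response genes were lower in 4 of 56 (7.14%), about the 7.57% of all genes, with Irf9, a partner of the STAT factors, falling from 31.3 and 17.5 CPM to 10.01 and 10.41 CPM, and none was higher. Without F1 replicate 1, 11 of these were higher, and without WT replicate 1 none was lower.

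The study's own tables of lipid genes were chosen on these samples and so are no independent evidence. They held 99 of the 1811 called genes, 52 higher and 47 lower, and 1712 called genes were outside them.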

How the data were processed

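RNA-Seq of 2 WT and 2 F1 libraries was analysed. Per the labels and the study's methods, the authors aligned 50-base single-end reads to mm9 with TopHat, using known junctions only, and counted reads per gene with HTSeq in intersection-strict mode. The deposited values are raw counts for 34620 gene symbols. Reads aligned to several places are not in them, so genes with near-identical copies are uncertain, and the library kit does not mark strand, so overlapping genes cannot be separated. The rows that name no gene were left out of library sizes and tests, and the report gives their share.

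Of 26520 genes with a count, 17287 passed edgeR's filterByExpr (edgeR 4.0.16, R 4.3.3). TMM factors, tagwise dispersion and the exact test followed, with a Benjamini-Hochberg adjusted p under 0.01 as the call. Standard errors came from the tagwise dispersion and the counts. Fitted alternatives included the quasi-likelihood and likelihood-ratio tests, DESeq2 1.42.0, other scalings, filters and thresholds, and each library left out. The correction for GC content and exon length was fitted with the likelihood-ratio test. The scripts were tested on simulated data. Replicates differed by more than sampling noise, with a chi-square of 23.0 per degree of freedom in WT and 18.5 in F1.

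The comparison and its 92 gene lists were chosen with earlier results of these data known. Genes were named by a fixed rule: with a mean of at least 50 normalised counts, the 15 largest changes and 10 highest levels per direction, up to 4 called genes per list, all cell type genes and Htr1a, and the range ends of families called more often than all genes. Hdac11, Sc5d and Cxcl12 were named after their values were seen. Gene types and exon structure came from the annotation of mm9, which matched 33294 symbols, and promoter sequences came from RefSeq. Some genes are not reported here.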

Additional observations from a re-analysis of the deposited data

How the results depend on the processing

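The counts of genes depended on the test and on single libraries. Against 1811 changed genes, 502 higher and 1309 lower, the quasi-likelihood test gave 978 changed, 186 higher and 792 lower. An adjusted p under 0.05 in place of 0.01 gave 3206, 1178 and 2028. With 1 library left out, the changed genes ranged from 622 to 1720, the higher from 148 to 654 and the lower from 474 to 1066. The lowest counts came without WT replicate 1, and 899 genes were changed without F1 replicate 2 and 1031 without WT replicate 2. The lone library of a group was then assumed to vary like the other group. DESeq2 gave 404 higher and 897 lower, and the other scalings, filters and dispersion settings stayed within 1.5 times the counts reported. Of calls, 27.7% were higher, and between 27.1% and 31.2% under RLE factors, upper-quartile factors or the GC and length offset, but 14.5% without WT replicate 2, 38.0% without F1 replicate 1 and 19.02% by the quasi-likelihood test. The replicate numbers were not shown to pair the libraries, since replicate differences in WT and F1 had a correlation of -0.0087 across genes. With the replicate block, the quasi-likelihood test gave 424 higher and 1147 lower, and the likelihood-ratio test 487 and 1619. The alternatives were followed for 111 named genes, without some that were not called, such as Mbp. Of these 111, 53 kept their direction and their side of the threshold under every alternative. None reversed, but no called gene had overlapping WT and F1 values, which largely excluded a reversal beforehand. The quasi-likelihood test lost 28 of the 111, and more were lost without WT replicate 1. The cause of these differences was not tested. With 2 libraries a group, the number of libraries limits the precision.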

Other observations

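Genes of antigen presentation by MHC class II, chosen after their values were seen, were highest in F1 replicate 2. Cd74, the invariant chain, was at 2.59 and 6.48 CPM in WT and at 2.91 and 23.6 CPM in F1. H2-Aa was at 1.82 and 3.45 CPM in WT and at 0.925 and 10.9 CPM in F1, and H2-Ab1 at 1.85 and 3.10 CPM against 1.59 and 8.47 CPM. The groups overlapped in these 3 genes and none was called. Another class II gene, H2-Eb1, was called higher, at 0.618 and 0.775 CPM in WT and at 1.26 and 6.16 CPM in F1 (2.41 ± 0.57), and it was not called by the quasi-likelihood test. The early genes Fos and Egr1 stood apart in F1 replicate 1 instead, with Fos at 8.47 and 7.997 CPM in WT and at 22.0 and 5.81 CPM in F1, and Egr1 at 50.2 and 46.7 CPM against 99.8 and 46.2 CPM.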
